A study of Mus musculus with 40 samples.

Results

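Levels of 10 genes of myeloid commitment were followed across mouse bone marrow populations: the C/EBP transcription factors Cebpa, Cebpb, Cebpd and Cebpe, the transcription factors Spi1, Gfi1 and Irf8, and the colony-stimulating factor (CSF) receptor genes Csf1r, Csf2ra and Csf3r. They were listed by name, and all 10 were found among the 35976 gene symbols of the deposited count table. Poly(A) RNA was sequenced after amplification by a modified SMART-Seq2 protocol. Sorted long-term haematopoietic stem cells (LT-HSC), progenitors of the megakaryocyte and erythroid lineages (MEP) and a pooled gate of common myeloid with granulocyte-macrophage progenitors (CMP/GMP) were each profiled from Dnmt3a knockout and wild-type mice. There were 4 libraries in each group except wild-type MEP, with 3. Bone marrow cells selected on c-kit, the stem cell factor receptor carried by most stem and progenitor cells, were profiled in 2 wild-type, 2 Dnmt3a knockout, 2 Sting knockout and 3 Dnmt3a/Sting double knockout libraries. The series text describes the Dnmt3a knockout as a floxed allele with Mx1-Cre, an interferon-inducible Cre that is active in blood cells and in other tissues. Strain, age, induction, the Sting allele and whether wild-type mice carried Cre or had the same induction were not given in the sources used here. Nothing says that replicates were separate mice, so p-values measure the spread between these libraries, which may be partly technical.

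Spi1 encodes PU.1, an Ets-family factor that is needed for the myeloid lineages and is lowered on the erythroid path. C/EBPα drives the step from common to granulocyte-macrophage progenitor, C/EBPε acts later in granule formation, C/EBPβ is used in emergency granulopoiesis, and C/EBPδ is induced by inflammatory signals. Gfi1 is a repressor that favours neutrophil over monocyte fate, and IRF8 favours monocyte and dendritic cell fate. Csf1r, Csf2ra and Csf3r encode the receptor for M-CSF, the ligand-binding chain for GM-CSF and the receptor for G-CSF. In the GENCODE M21 annotation of GRCm38, Cebpa (chr7:35119293-35121928), Cebpb (chr2:167688915-167690418) and Cebpd (chr16:15887286-15891031) have a single exon. Cebpe lies at chr14:54710360-54712174, Spi1 at chr2:91082390-91115756, Gfi1 at chr5:107716657-107726036, Irf8 at chr8:120736358-120756694, Csf2ra at chr19:61223957-61228429 and Csf3r at chr4:126024550-126044440. Whether reads were counted by strand was not given in the sources used here, so reads of Cebpa and Gm45091, Cebpb and Tmem189, Cebpd and Spidr, Gfi1 and A430072P03Rik, and Csf1r and Hmgxb3 cannot be told apart where these opposite-strand genes overlap, nor those of Irf8 and Gm20388 on the same strand.

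Because DNMT3A writes DNA methylation at CpG sites, the promoter sequences of 3 members are shown to place the CpG content and motifs beside the levels. Each is the stretch of 250 bases before the transcript start in RefSeq (GRCm38.p6), plus strand, 5′ to 3′, and capitals mark every match, on either strand, to the GC box GGGCGG, the C/EBP-type motif TTNNGNAA or the Ets-type motif GAGGAA.
Cebpa, chr7:35119043-35119292: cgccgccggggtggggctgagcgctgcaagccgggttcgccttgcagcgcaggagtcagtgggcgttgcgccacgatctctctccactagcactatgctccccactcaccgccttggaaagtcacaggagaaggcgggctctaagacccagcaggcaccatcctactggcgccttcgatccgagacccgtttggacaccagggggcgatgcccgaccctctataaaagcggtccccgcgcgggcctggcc
Cebpb, chr2:167688665-167688914: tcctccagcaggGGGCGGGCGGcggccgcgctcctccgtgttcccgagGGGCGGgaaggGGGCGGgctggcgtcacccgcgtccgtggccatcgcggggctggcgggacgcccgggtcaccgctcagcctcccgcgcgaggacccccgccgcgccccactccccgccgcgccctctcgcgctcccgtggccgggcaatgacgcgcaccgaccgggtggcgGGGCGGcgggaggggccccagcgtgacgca
Irf8, chr8:120736108-120736357: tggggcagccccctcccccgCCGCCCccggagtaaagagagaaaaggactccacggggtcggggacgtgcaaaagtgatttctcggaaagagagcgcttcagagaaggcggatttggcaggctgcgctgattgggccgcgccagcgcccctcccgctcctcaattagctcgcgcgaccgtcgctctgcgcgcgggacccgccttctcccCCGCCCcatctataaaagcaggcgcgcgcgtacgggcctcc
Cebpb held 41 CpG, more than 98.9% of the 32851 promoter windows in the table, Irf8 held 29 and Cebpa 22, against a median of 6. GC boxes were found at 5 places in Cebpb, overlapping matches included, at 2 in Irf8 and at none in Cebpa, and 32.7% of all windows hold at least 1. None of these 3 windows held the C/EBP-type motif, found in 36.8% of all windows, or the Ets-type motif, found in 23.3%. The other windows in the table had less CpG, with 17 for Csf2ra, 13 and 9 for the 2 starts of Gfi1, 8 for the second start of Irf8 and 6 for Csf3r. Csf2ra held 1 C/EBP-type and 2 Ets-type matches, Csf3r held 1 Ets-type match, and the first start of Gfi1 held 1 C/EBP-type match. These matches describe letters, not binding, and methylation was not measured in the files used here.

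Libraries held 3439743 to 47663942 gene reads, and levels below are counts per 1000000 reads after scaling by the trimmed mean of M values (CPM). In all, 5 libraries stood apart from their own population, wild-type LT-HSC 1, knockout LT-HSC 2 and knockout MEP 2, 3 and 4, with a median correlation of 0.817 to 0.860 with libraries of the same population against 0.867 or more in the other LT-HSC and MEP libraries. Among counts of 1 to 20, 83.9% to 87.1% were even in these 5 libraries and 63.9% to 75.2% in the others, so a count is not an independent molecule and intervals from counting alone would be too narrow. Knockout MEP 3 and 4 and wild-type CMP/GMP 2 and 4 were more alike (correlation 0.991 and 0.993) than the other pairs of their groups (0.815 to 0.846 and 0.914 to 0.928). Their counts differed by more than counting error, which for amplified reads does not settle whether they are separate samples. They were kept apart, and values with each pair summed are given where they matter. Dnmt3a was lower in every knockout than in every wild-type library in CMP/GMP and c-kit+ cells, while knockout LT-HSC 3, at 104 CPM, and knockout MEP 2, at 43.8 CPM, exceeded some wild-type libraries, and these are the libraries labelled knockout. Tmem173, which encodes STING, was at 10.1 to 11.8 CPM in the 5 libraries labelled Sting or double knockout and at 44.7 to 66.8 CPM in the other 4 c-kit+ libraries. Sorted populations carried their own markers: the summed LT-HSC list was at 1040 to 1810 CPM in LT-HSC and at most 255 CPM in the other sorted groups, and the summed MEP list was at 7710 to 15700 CPM in MEP and at most 3010 CPM in the others. Libraries of female origin, by Xist, and of male origin, by Y-linked genes, were unevenly spread: in c-kit+ cells both Dnmt3a knockouts and double knockout 1 carried Xist and the other 6 did not, and among wild-type CMP/GMP libraries only replicate 3 did. Wild-type CMP/GMP 4 thus matched CMP/GMP 2, its near-identical library, and differed from wild-type LT-HSC 4 and MEP 4, which carried Xist.

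**Figure D1:**
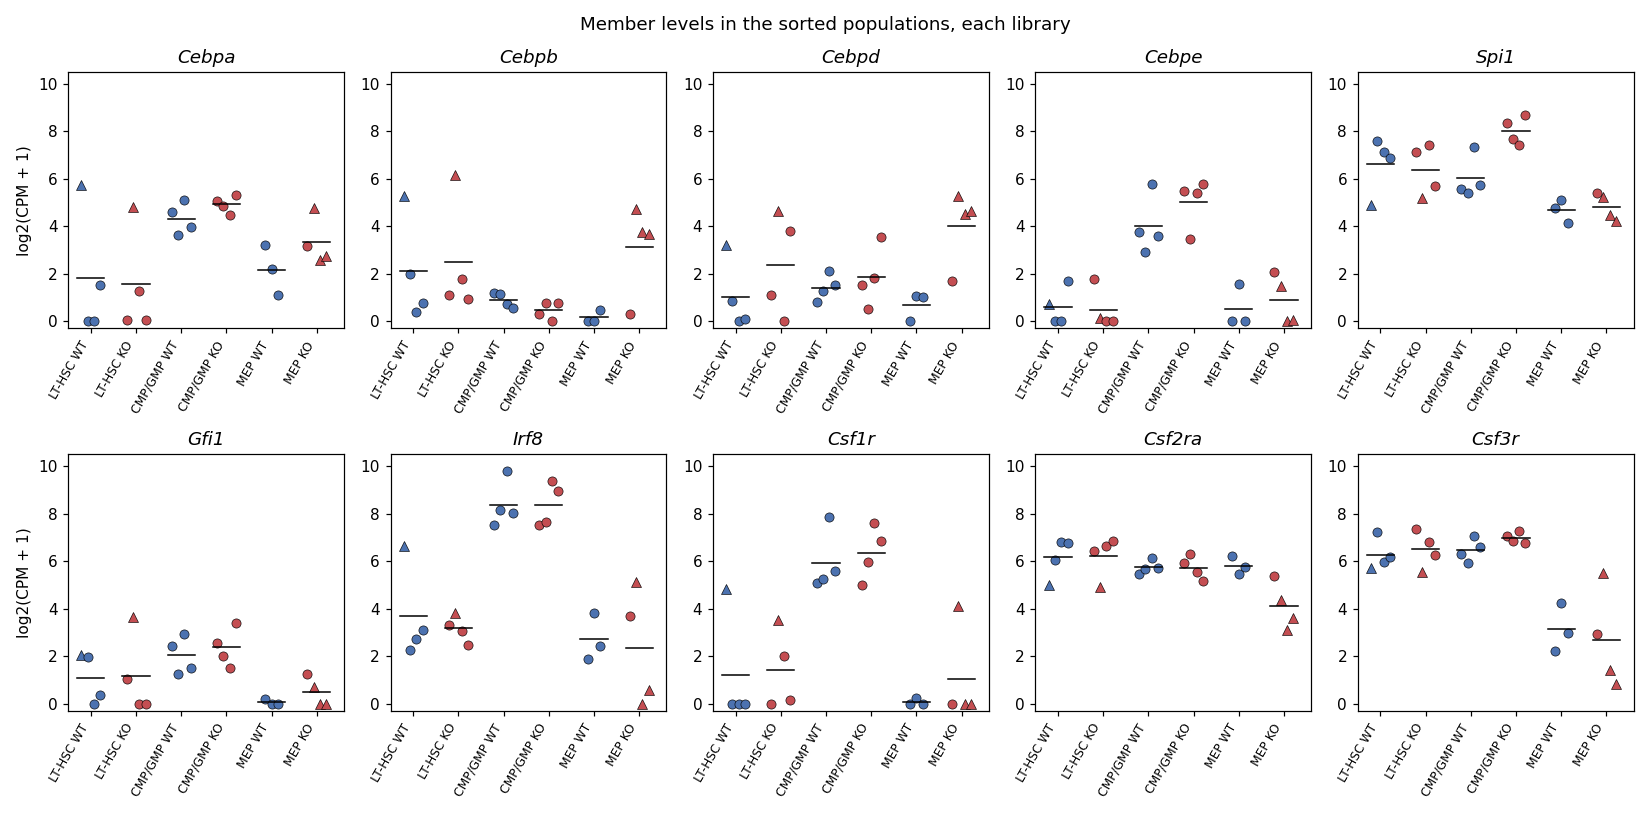
Levels of the 10 members in each library of the sorted populations, as log2(CPM + 1), with wild-type (WT) libraries in blue, Dnmt3a knockout (KO) libraries in red, the 5 libraries that stood apart as triangles, and group means of the log values as lines. Irf8 and Csf1r sit highest in CMP/GMP, Csf3r is low in MEP, Csf2ra overlaps between the wild-type groups, and the triangles hold most of the high Cebpa and Cebpb values of LT-HSC.

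In wild-type cells the members did not follow 1 pattern: Irf8 was highest in CMP/GMP, Csf3r and Spi1 were lowest in MEP, Csf2ra overlapped between populations, and Cebpb, Cebpd and Gfi1 were low in most libraries. By edgeR's quasi-likelihood test over 14663 genes, with adjusted p under 0.05 as the call, 1 of the 10 members was called between CMP/GMP and LT-HSC, where 8.74% of all genes were called. Between MEP and LT-HSC 2 were called, where 13.2% of genes were, and between CMP/GMP and MEP 2, where 3.47% were. In CMP/GMP against MEP, 8 of 10 members had groups that did not overlap and were higher in CMP/GMP, against 13.3% of all genes. The members' median log2 fold change was 2.99 there, against 0.06 over all genes, and it was -2.12 for MEP against LT-HSC, against -0.17, and 0.41 for CMP/GMP against LT-HSC, against -0.085.

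Irf8, the monocyte and dendritic cell factor, was at 181, 283, 895 and 259 CPM in wild-type CMP/GMP 1 to 4, at 97.8, 3.84, 5.57 and 7.67 CPM in wild-type LT-HSC 1 to 4, and at 2.67, 12.99 and 4.38 CPM in wild-type MEP 1, 3 and 4. Every CMP/GMP library lay above every LT-HSC and MEP library. The mean was 404 ± 330 CPM in CMP/GMP (SD, n = 4) and 28.7 ± 46.1 in LT-HSC (n = 4), a log2 fold change of 3.86 (SE 1.02, adjusted p = 0.0335). Against MEP, at 6.68 ± 5.53 CPM (SD, n = 3), it was 5.91 (SE 1.28, adjusted p = 0.0218). The first call is close to the threshold: it was lost with a term for Xist or Y libraries (adjusted p = 0.0561), with 1 fit over all 23 sorted libraries (0.0729), with the near-identical CMP/GMP 2 and 4 summed (0.0647), and without any one of CMP/GMP 2, 3 or 4 or LT-HSC 2, 3 or 4 (0.0578 to 0.0886). Without LT-HSC 1, which stood apart, the log2 fold change was 6.17 (adjusted p = 0.000554). The call against MEP was lost without MEP 1 (0.0858), 3 (0.0530) or 4 (0.119).

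Csf1r, the M-CSF receptor that marks monocytes, was at 32.3, 36.7, 227 and 47.3 CPM in wild-type CMP/GMP 1 to 4. In LT-HSC, replicate 1 had 27.6 CPM and the other 3 had no read, which allows up to 0.0859 CPM at a floor of 3 reads, and in MEP only replicate 3 had reads, at 0.174 CPM. All CMP/GMP libraries lay above all others, yet edgeR called neither difference, with an adjusted p of 0.228 against LT-HSC and 0.0841 against MEP. Without a filter on low counts the difference from MEP was called, at 0.0109 (655 of 20753 genes called), as was MEP against LT-HSC, at 0.0436. Without LT-HSC 1 both differences of CMP/GMP were called, at 0.000737 and 0.00111, and no fold is given because 3 LT-HSC libraries and 2 MEP libraries are at 0. Irf8 and Csf1r are both highest in CMP/GMP 3, whose summed CMP/GMP markers, genes of the neutrophil granule and of that gate, reached 33060 CPM against 7029 to 9510 CPM in the other 3. LT-HSC 1, which carried the LT-HSC high values of both, had a sum of 3552 CPM against 450.2 to 642.8 CPM in its group. The part of these marker levels in the results was not tested.

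Csf3r, the G-CSF receptor, was at 50.6, 148, 61.1 and 70.3 CPM in LT-HSC 1 to 4, at 78.1, 59.0, 131 and 95.5 CPM in CMP/GMP 1 to 4, and at 3.65, 17.6 and 6.88 CPM in MEP 1, 3 and 4. No MEP library overlapped either other population, while LT-HSC and CMP/GMP overlapped fully. The mean in MEP, 9.38 ± 7.30 CPM (SD, n = 3), was below 82.4 ± 44.2 in LT-HSC (n = 4), with a log2 fold change of -3.10 (SE 0.57, adjusted p = 0.00409), and below 90.9 ± 30.6 in CMP/GMP (n = 4), where CMP/GMP exceeded MEP by 3.26 (SE 0.58, adjusted p = 0.00738). The LT-HSC call held in every alternative run. The CMP/GMP call was lost in 1 fit over the 23 sorted libraries (0.0779) and without MEP 4 (0.0544). Spi1 was at 29.0, 192, 139 and 117 CPM in LT-HSC 1 to 4, at 47.1, 41.1, 159 and 52.6 CPM in CMP/GMP 1 to 4, and at 25.9, 33.8 and 16.8 CPM in MEP 1, 3 and 4. It was lower in MEP than in LT-HSC, 25.5 ± 8.53 CPM (SD, n = 3) against 119 ± 67.7 (n = 4), with a log2 fold change of -2.19 (SE 0.62, adjusted p = 0.0352), although LT-HSC 1 lay inside the MEP range. This call was lost with the replicate number as a block (0.0503). It was also lost without any one MEP library or LT-HSC 2, 3 or 4 (0.0567 to 0.133), and held without LT-HSC 1 (0.00517). Between CMP/GMP and MEP Spi1 did not overlap but was not called. CMP/GMP was higher by 1.54 there (SE 0.61, adjusted p = 0.215).

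Csf2ra, the GM-CSF receptor chain, was at 78.4 ± 38.1 CPM in LT-HSC (SD, n = 4), 53.2 ± 11.5 in CMP/GMP (n = 4) and 55.7 ± 14.97 in MEP (n = 3), and all 3 ranges overlapped. Its fitted log2 difference was -0.08 (SE 0.40) between CMP/GMP and MEP, -0.53 (SE 0.37) between CMP/GMP and LT-HSC and -0.46 (SE 0.41) between MEP and LT-HSC, none of them called. Cebpe, the granule-stage factor, was at 6.45 to 54.5 CPM in CMP/GMP and at 0 to 2.28 CPM in LT-HSC and MEP, with no overlap, but was not called by edgeR (adjusted p of 0.137 and 0.294). DESeq2 called it against LT-HSC, at 0.0387, and not against MEP, at 0.0779. Cebpa was at 11.3 to 33.4 CPM in CMP/GMP and 1.16 to 8.39 CPM in MEP, without overlap and without a call (0.685), and in LT-HSC it had 51.8 CPM in replicate 1 and at most 1.90 CPM in the other 3. Gfi1 did not pass 6.63 CPM in any wild-type sorted library, and Cebpb and Cebpd did not pass 3.28 CPM except in LT-HSC 1, with 37.9 and 8.28 CPM.

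**Figure D2:**
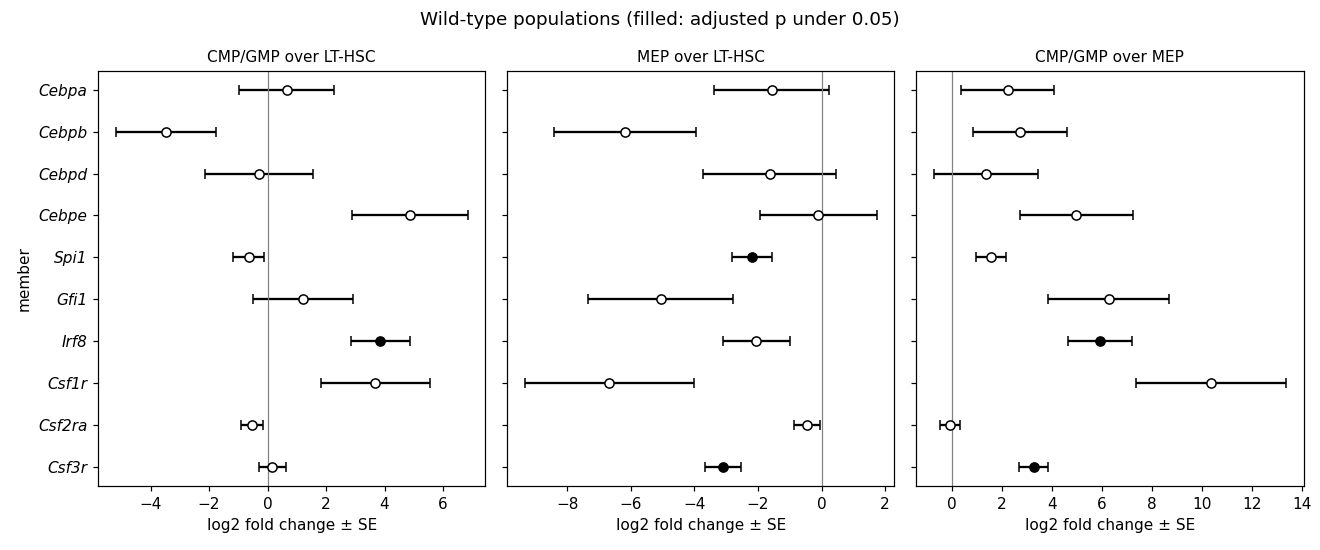
Log2 fold change of each member between wild-type populations, with bars of 1 SE and filled points where the adjusted p was under 0.05. Irf8 is filled in both comparisons with CMP/GMP, Csf3r in both comparisons with MEP and Spi1 in MEP over LT-HSC, while the wide bars of Csf1r, Gfi1 and Cebpb come with libraries at or near 0.

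Most calls by edgeR among genes that act with the members were lower in CMP/GMP and MEP than in LT-HSC. Over all genes 8.74% were called in CMP/GMP against LT-HSC, 13.2% in MEP against LT-HSC and 3.47% in CMP/GMP against MEP. Of 29 partner transcription factors, 27 were tested: 0 rose and 7 fell in CMP/GMP against LT-HSC, 1 rose and 15 fell in MEP against LT-HSC, and 4 were higher and 0 lower in CMP/GMP than in MEP. Id1, an inhibitor of basic helix-loop-helix factors, fell from 127.9 ± 33.7 CPM in LT-HSC (SD, n = 4) to 7.97 ± 2.84 in CMP/GMP (n = 4) and 1.57 ± 0.405 in MEP (n = 3), with adjusted p of 0.000243 and 5.3e-05. Klf4, a factor of monocyte differentiation, fell from 57.4 ± 40.4 to 3.01 ± 2.81 CPM in MEP (adjusted p = 0.00502). Of 21 tested genes among the CSF ligands, other receptor chains and signalling genes, 2 fell in CMP/GMP and 5 in MEP against LT-HSC, and 3 were higher in CMP/GMP than in MEP, with none in the other direction. Socs3, a feedback inhibitor of cytokine receptors, fell from 178.3 ± 80.2 CPM in LT-HSC to 24.2 ± 14.1 in CMP/GMP and 3.47 ± 2.57 in MEP, with adjusted p of 0.0165 and 0.00120. Csf2rb2, a beta chain that pairs with the IL-3 receptor in mice, was at 41.9 ± 8.84 CPM in CMP/GMP and 0.160 ± 0.277 in MEP (adjusted p = 0.0122).

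Of 20 textbook targets of the members, 18 were tested in wild-type cells: 1 rose in CMP/GMP against LT-HSC, 4 fell in MEP against LT-HSC, and 4 were higher in CMP/GMP than in MEP. In these comparisons 8.74%, 13.2% and 3.47% of all genes were called. Ncf4, a subunit of the phagocyte oxidase, was at 129 ± 17.1 CPM in CMP/GMP (SD, n = 4), 29.2 ± 11.7 in LT-HSC (n = 4) and 6.75 ± 1.91 in MEP (n = 3), with adjusted p of 0.00218 and 0.000174. Prtn3, the granule protease proteinase 3, was at 1327 ± 600 CPM in CMP/GMP, 510.4 ± 290.3 in LT-HSC and 49.5 ± 28.8 in MEP, and MEP was below both (adjusted p of 0.00114 and 0.00243). Of 8 factors of opposing lineages, 6 were tested: 3 rose and 0 fell in MEP against LT-HSC, 1 rose and 2 fell in CMP/GMP against LT-HSC, and 1 was lower in CMP/GMP than in MEP. Klf1 and Gata1, the erythroid factors, rose from 49.7 ± 49.4 and 35.9 ± 24.6 CPM in LT-HSC to 938 ± 404 and 406.7 ± 54.9 in MEP, with adjusted p of 0.0205 and 0.00197. Tal1 fell from 92.1 ± 81.5 to 26.4 ± 3.39 CPM in CMP/GMP (adjusted p = 0.0369), while Gata1 rose to 124.9 ± 39.2 there (0.0470). Both calls were close to the threshold, and values under the alternatives are not given for these genes.

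The c-kit+ cells, a broader gate than the sorted populations, held the highest levels of Cebpa, Cebpe, Gfi1 and Csf3r. In the 9 c-kit+ libraries Gfi1 was at 99.2 to 169 CPM, against at most 11.7 CPM in the 23 sorted ones, and Cebpe was at 91.3 to 169 CPM, against at most 54.5 CPM. Csf3r was at 246 CPM or more, against at most 161 CPM, and Cebpa at 77.8 CPM or more, against at most 51.8 CPM. These c-kit+ libraries did not overlap the sorted libraries for any of these 4 genes. The share of all genes that separate in this way was not counted, so this is not a trait shown for the members alone. For Irf8, c-kit+ cells were at 102 to 186 CPM and the 8 CMP/GMP libraries mostly higher, at 181 to 895 CPM. These ranges overlapped slightly. LT-HSC and MEP libraries reached at most 97.8 CPM, below all c-kit+ libraries. The summed levels of 10 mature neutrophil markers were 6320 to 32000 CPM in c-kit+ cells and at most 30.5 CPM in sorted cells, and the part of mature cells in the c-kit+ levels was not tested. The c-kit+ libraries also held more genes with a read, 18713 to 19514 against 10706 to 15068 in the sorted ones. The part of this difference in the levels was not tested either. In such bulk samples fewer cells of a type and less RNA per cell cannot be told apart. Per kilobase of exon, which allows genes to be set side by side, wild-type c-kit+ cells had most Csf3r (78.9 CPM per kb), Cebpe (77.6) and Spi1 (59.2) and least Cebpb (10.3) and Cebpd (5.3). Wild-type LT-HSC had most Spi1 (44.1), Csf2ra (27.3) and Csf3r (22.8). Wild-type CMP/GMP had most Irf8 (57.3) and Spi1 (27.8), and MEP had most Csf2ra (19.4), then Spi1 (9.46).

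Ordered by mean CPM over the 10 groups, most neighbouring groups overlapped. Cebpa ran from Sting knockout and double knockout c-kit+ cells, which overlapped, through Dnmt3a knockout and then wild-type c-kit+ cells, each apart from its neighbours, to the 6 sorted groups, whose neighbours all overlapped. Cebpe had 3 separate levels: the 4 c-kit+ groups, both CMP/GMP groups, and the LT-HSC and MEP groups. Gfi1 ran from the 3 mutant c-kit+ groups to wild-type c-kit+ cells to all sorted groups. Csf3r ran in the same way down to wild-type c-kit+ cells, then to CMP/GMP and LT-HSC, which overlapped, and last to both MEP groups, apart from the rest. For Irf8 the CMP/GMP and c-kit+ groups formed 1 overlapping run and LT-HSC and MEP another, and for Csf1r the c-kit+ Sting knockout overlapped neither neighbour by mean, while it lay inside the wide ranges of both CMP/GMP groups. Csf2ra had its lowest mean in Dnmt3a knockout MEP, whose range did not reach that of the next group by mean. That range still overlapped both LT-HSC groups and Dnmt3a knockout CMP/GMP. Spi1 was highest in Dnmt3a knockout CMP/GMP, 276 ± 110 CPM (SD, n = 4), overlapping the c-kit+ Sting knockout next to it. All neighbours overlapped for Cebpb and Cebpd.

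The design text asks how loss of Dnmt3a changes transcripts of stem and progenitor cells. In the sorted populations, none of the members was called between Dnmt3a knockout and wild type, and Spi1 in CMP/GMP came nearest. The edgeR test called 0 genes in each sorted population (0.00% of 12800 in LT-HSC, of 13205 in CMP/GMP and of 12323 in MEP). At an unadjusted p under 0.05 there were 151 genes in LT-HSC, 1196 in CMP/GMP and 1607 in MEP, or 1.18%, 9.06% and 13.0% of the genes tested, with 0, 1 and 3 members among them. DESeq2 called 7, 158 and 535 genes, with 0 members in LT-HSC, 1 (Spi1) in CMP/GMP and 2 (Cebpb and Cebpd) in MEP. The tests covered 8 members in LT-HSC, without Cebpe and Csf1r, all 10 in CMP/GMP, and 8 in MEP, without Gfi1 and Csf1r, since the others had too few reads.

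Spi1 in CMP/GMP was at 329, 202, 169 and 405 CPM in knockout 1 to 4 and at 47.1, 41.1, 159 and 52.6 CPM in wild-type 1 to 4. Every knockout library lay above every wild-type library, though knockout 3 exceeded wild-type 3 by little, and 2.94% of all genes had groups that did not overlap in this direction. The means were 276 ± 110 and 74.9 ± 56.2 CPM (SD, n = 4 each), with a log2 fold change of 1.89 (SE 0.44, unadjusted p = 0.00114, adjusted p = 0.305, edgeR). DESeq2 gave an adjusted p of 0.0492. Without wild-type 3 the log2 fold change was 2.58 and the adjusted p 0.0409 (12 of 13683 genes called), and with the near-identical wild-type 2 and 4 summed these were 1.72 and 0.840. Over the alternatives run the log2 fold change was 1.65 to 2.58 and the adjusted p 0.0409 to 0.882. Among the libraries without Xist the knockouts had 329 and 202 CPM and the wild types 41.1 to 52.6 CPM. Among those with Xist the knockouts had 169 and 405 CPM and the single wild type 159 CPM. Beside this, summed CMP/GMP markers were 19030, 9673, 22140 and 23090 CPM in knockout 1 to 4 and 9510, 7029, 33060 and 9094 CPM in wild-type 1 to 4. The part of these marker levels in the Spi1 difference was not tested.

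**Figure D3:**
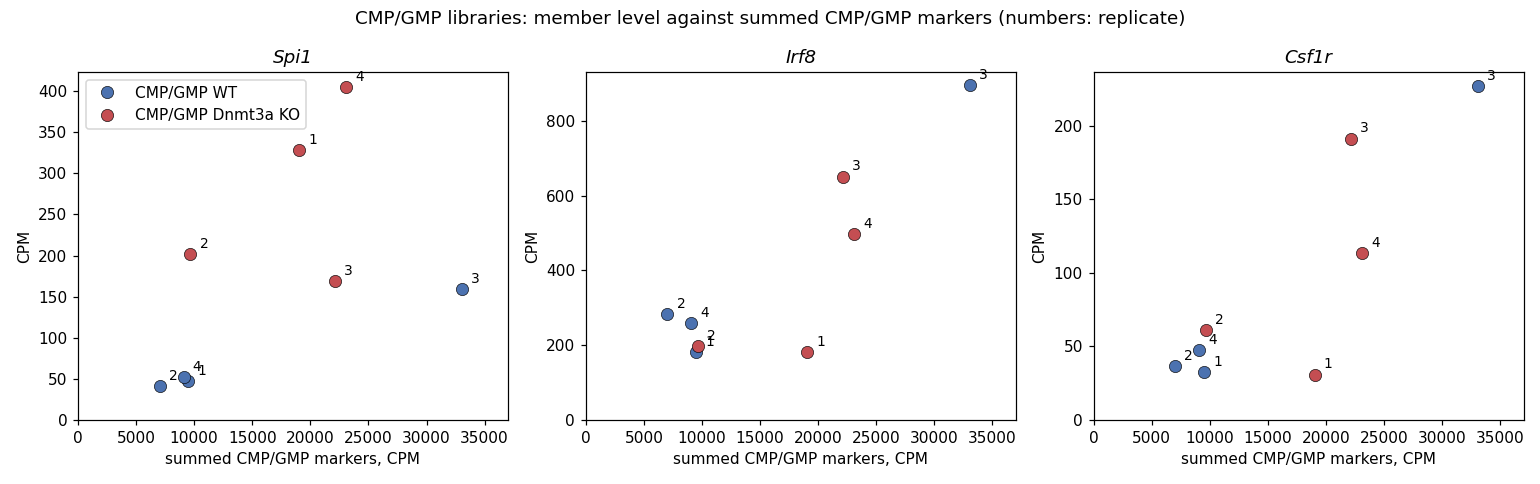
Levels of Spi1, Irf8 and Csf1r in CPM against the summed CPM of 7 CMP/GMP markers in the 4 wild-type (blue) and 4 Dnmt3a knockout (red) CMP/GMP libraries, numbered by replicate. Wild-type 3 has the highest marker sum and the highest Irf8 and Csf1r, while for Spi1 all 4 knockout libraries lie above it, from 169 to 405 CPM.

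The other members overlapped between genotypes in CMP/GMP. Irf8 was at 181 to 651 CPM in knockout and 181 to 895 CPM in wild type, with a log2 fold change of -0.07 (SE 0.52). Csf3r was at 106 to 154 CPM in knockout and 59.0 to 131 CPM in wild type, with 0.48 (SE 0.24, adjusted p = 0.596). Cebpa was at 21.2 to 38.9 against 11.3 to 33.4 CPM and Cebpe at 9.92 to 54.2 against 6.45 to 54.5 CPM, and neither was called (adjusted p of 0.705 and 0.779). Csf2ra was at 34.5 to 76.7 CPM in knockout and 43.1 to 69.7 CPM in wild type, with 0.04 (SE 0.27). Positive fold changes were found for 8 of the 10 members, against 50.8% of all genes, and the members' median was 0.47.

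In MEP, Cebpb and Cebpd, the inflammation-linked C/EBP genes, were high in 3 of 4 knockout libraries, and these are the 3 that stood apart. Cebpb was at 0.243, 25.5, 12.4 and 11.7 CPM in knockout 1 to 4 and at 0, 0 and 0.411 CPM in wild-type 1, 3 and 4. Cebpd was at 2.25, 37.7, 21.6 and 24.2 CPM in knockout and at 0, 1.10 and 1.03 CPM in wild type. Cebpd did not overlap between genotypes and Cebpb did, and the fitted log2 fold changes were 4.90 (SE 1.61, adjusted p = 0.320) and 6.46 (SE 2.24, adjusted p = 0.321), both resting on wild-type libraries near 0. Csf2ra went the other way, with 40.0, 19.8, 7.46 and 10.97 CPM in knockout and 72.1, 42.8 and 52.1 CPM in wild type. Its groups did not overlap, and the log2 fold change was -1.53 (SE 0.64, adjusted p = 0.360). Without the 3 libraries that stood apart, which leaves only knockout 1, the log2 fold changes were 0.80 for Cebpb, 1.65 for Cebpd and -0.49 for Csf2ra. Without knockout 1 instead, all 3 were called (adjusted p of 0.0338, 0.0340 and 0.0245), in a fit that called 2882 of 11880 genes. With the near-identical knockout 3 and 4 summed, none of the 3 was called (adjusted p of 0.609, 0.609 and 0.666). In MEP 12.9% of all genes had groups that did not overlap. Markers differed between these groups as well. Summed MEP markers were at 7708 to 11730 CPM in knockout and 12170 to 15720 CPM in wild type, and LT-HSC markers at 169.8 to 255.1 CPM and 81.2 to 116 CPM, neither overlapping. Summed CMP/GMP markers were at 1374, 3083, 70.3 and 82.4 CPM in knockout 1 to 4 and 93.3 to 595 CPM in wild type. The 9 macrophage markers summed to 92.9, 18.9, 0 and 0 CPM in knockout 1 to 4 and 0 to 1.85 CPM in wild type. The part of these marker levels in the members' differences was not tested.

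In LT-HSC the highest Cebpa and Cebpb values came from 1 library of each genotype, again those that stood apart. Cebpa was at 0.0536, 27.0, 1.45 and 0.0497 CPM in knockout 1 to 4 and at 51.8, 0, 0 and 1.90 CPM in wild-type 1 to 4. Cebpb was at 1.13, 71.0, 2.48 and 0.944 CPM in knockout and 37.9, 2.92, 0.305 and 0.721 CPM in wild type. Spi1 was low in the same 2 libraries, 35.6 CPM in knockout 2 and 29.0 CPM in wild-type 1, and at 50.4 to 192 CPM in the other 6. Irf8 had the lowest p, with a log2 fold change of -1.76 (SE 1.06, unadjusted p = 0.125), and was at 4.49 to 13.1 CPM in knockout and 97.8, 3.84, 5.57 and 7.67 CPM in wild-type 1 to 4. Cebpd was at 2.07 (SE 2.15), Gfi1 at 1.06 (SE 2.32), Cebpb at 0.89 (SE 1.66), Cebpa at -0.88 (SE 2.30), Spi1 at -0.27 (SE 0.59), Csf3r at 0.26 (SE 0.46) and Csf2ra at 0.07 (SE 0.49) on the log2 scale. None of the 8 members had groups that did not overlap, where 1.73% of all genes did. A test of whether the Dnmt3a effect differed between LT-HSC, CMP/GMP and MEP called 0 of 10 members by edgeR, with 0.0186% of 16136 genes called. Spi1 (unadjusted p = 0.0232, adjusted 0.377) and Cebpb (0.0329, adjusted 0.386) were under 0.05 before adjustment, as were 12.0% of genes, and DESeq2 called 0 members as well.

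**Figure D4:**
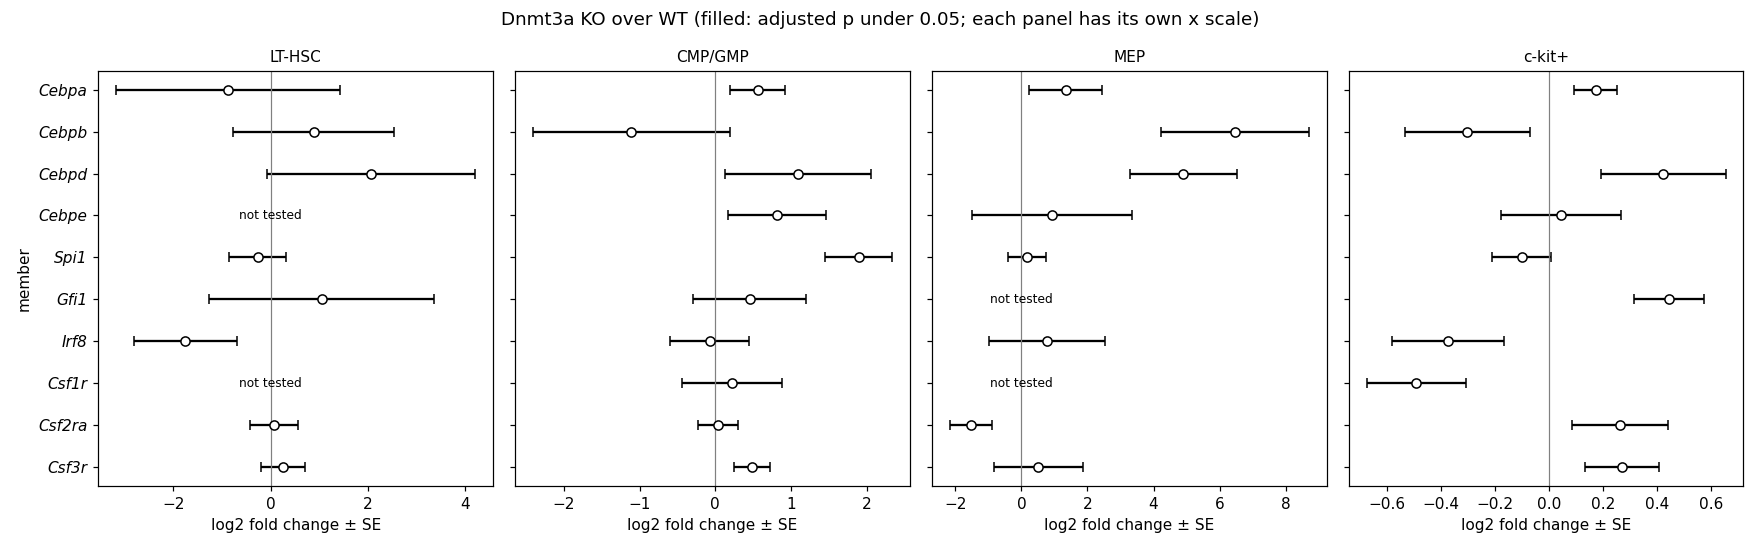
Log2 fold change of each member in Dnmt3a knockout over wild type in LT-HSC, CMP/GMP, MEP and c-kit+ cells, with bars of 1 SE and a separate x scale in each panel. No point is filled, that is, none had an adjusted p under 0.05, and Spi1 in CMP/GMP at 1.89, Cebpb and Cebpd in MEP at 6.46 and 4.90, and Gfi1 in c-kit+ cells at 0.44 lie farthest from 0 for their errors.

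No gene of the related lists was called by edgeR between genotypes in the sorted populations, as for all genes. DESeq2 called 1 of their genes in LT-HSC and 1 in CMP/GMP, both textbook targets, and 2 partner factors, 1 signalling gene and 2 opposing factors in MEP. At an unadjusted p under 0.05 there were 1, 5 and 6 partner factors in LT-HSC, CMP/GMP and MEP, 2, 3 and 0 textbook targets, 0, 0 and 1 signalling genes, and 1, 3 and 2 opposing factors. Over all genes tested the shares were 1.18%, 9.06% and 13.0%. The tests covered 27, 26 and 25 partner factors, 19, 19 and 15 signalling genes, and 6 opposing factors in each population. The partner factors had median log2 fold changes of 0.06 in LT-HSC, -0.05 in CMP/GMP and 0.43 in MEP, against medians of 0.00, 0.01 and -0.03 over all genes. The textbook targets, of which 13, 17 and 12 were tested, had medians of -0.765, 0.30 and 1.16. CSF ligands, other receptor chains and signalling genes were at -0.24, -0.04 and 0.49, and opposing lineage factors at 0.35, 0.56 and 0.07.

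In c-kit+ cells all 10 members were well above the floor, and replicates correlated at 0.981 to 0.987 over all genes. Some members still differed between replicates, such as Irf8, at 186 and 122 CPM in wild type, and Cebpe, at 94.0 to 169 CPM in double knockout. Differences between genotypes were small, and no member was called over 16026 genes. Against wild type, edgeR called 0.568% of genes in Dnmt3a knockout, 0.774% in Sting knockout and 1.26% in double knockout cells. Unadjusted p-values under 0.05 were found for 2, 7 and 8 members, and for 16.3%, 11.5% and 16.7% of all genes. DESeq2 called 1, 3 and 5 members in these comparisons, and 645, 449 and 890 genes in all against 91, 124 and 202 by edgeR. Fold changes were positive for 6, 8 and 8 members, against 49.8%, 50.3% and 49.7% of genes, with member medians of 0.11, 0.32 and 0.43 on the log2 scale. The 3 comparisons share the same 2 wild-type libraries, so a shift in those moves all 3 together. Group ranges did not overlap for 8, 9 and 7 members, but with 2 libraries a group this held for 55.4%, 45.8% and 32.7% of all genes.

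Gfi1, the repressor that favours neutrophil fate, was at 99.2 and 115 CPM in wild type, 139 and 148 in Dnmt3a knockout, 125 and 145 in Sting knockout, and 160, 169 and 132 in double knockout. All 7 mutant libraries lay above both wild types. Its log2 fold change was 0.44 (SE 0.13, adjusted p = 0.157) in Dnmt3a knockout, 0.32 (SE 0.13, 0.372) in Sting knockout and 0.53 (SE 0.12, 0.0680) in double knockout. DESeq2 called the first and the last, and with a term for Xist the first had an adjusted p of 0.760 by edgeR. Sex and genotype coincide in that comparison. The term rests on double knockout 1 against 2 and 3, the only group with both sexes. Cebpa, the granulocyte-monocyte commitment factor, was at 77.8 and 88.1 CPM in wild type, 93.3 and 91.6 in Dnmt3a knockout, 109 and 109 in Sting knockout, and 104, 109 and 104 in double knockout. It too was lowest in wild type, with 0.38 (SE 0.08, adjusted p = 0.0765) in Sting knockout and 0.35 (SE 0.07, adjusted p = 0.0542) in double knockout. DESeq2 called both, at 0.00743 and 0.00369.

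Cebpb ran lowest in Dnmt3a knockout, at 10.7 and 14.1 CPM, against 15.5 and 15.4 in wild type, 24.5 and 28.3 in Sting knockout and 15.9, 24.6 and 25.6 in double knockout. Double knockout exceeded Dnmt3a knockout by 0.82 on the log2 scale (SE 0.21, unadjusted p = 0.00354, adjusted p = 0.530), with no overlap. That difference was 0.34 with a term for Xist or Y libraries, and double knockout 1, which like both Dnmt3a knockouts carried Xist, was at 15.9 CPM. Cebpd was at 18.3 to 21.7 CPM in wild type and at 24.4 to 41.3 CPM in the 7 mutant libraries, without overlap. Cebpe was at 94.8 to 97.8 CPM in wild type and 91.3 to 169 CPM in the mutants, and these overlapped. Spi1 was at 159 to 160 CPM in wild type, 145 to 149 in Dnmt3a knockout, 182 to 202 in Sting knockout and 169 to 213 in double knockout, with double knockout above Dnmt3a knockout by 0.35 (SE 0.10, adjusted p = 0.5999).

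**Figure D5:**
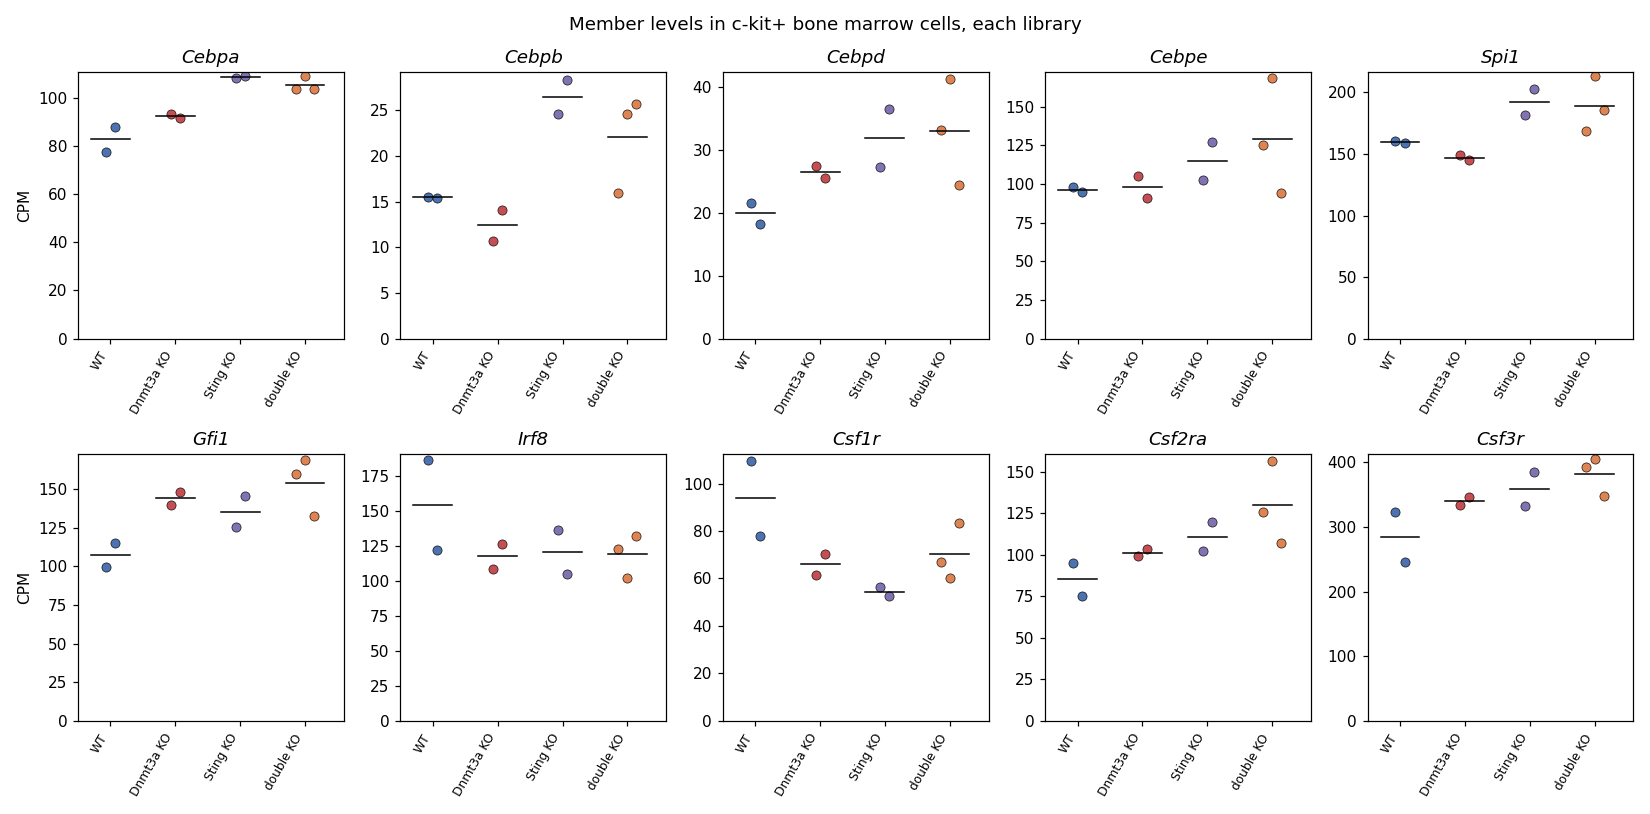
Levels of the 10 members in CPM, on axes that start at 0, in each c-kit+ library of the 4 genotypes, with group means as lines. Gfi1, Cebpa and Cebpd are lowest in both wild-type libraries, and Csf1r is lowest in Sting knockout, at 52.5 and 56.5 CPM.

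Among the receptors, Csf1r had its highest mean in wild type while Csf2ra and Csf3r had their lowest there. Csf1r was at 110 and 78.0 CPM in wild type, 61.5 and 70.4 in Dnmt3a knockout, 56.5 and 52.5 in Sting knockout, and 66.8, 60.1 and 83.6 in double knockout. The wild types lay above both single knockouts and overlapped the double knockout. The log2 fold changes were -0.49 (SE 0.18, adjusted p = 0.232), -0.80 (SE 0.19, 0.106) and -0.42 (SE 0.17, 0.251). Whether loss of Dnmt3a acts differently with and without Sting was tested as an interaction, for which 0.150% of genes were called and 0 members by edgeR. Csf1r was the only member under an unadjusted p of 0.05, where 7.56% of genes were, with an interaction of 0.88 (SE 0.25, unadjusted p = 0.00615, adjusted p = 0.379), and DESeq2 called it, at 0.0401. Csf2ra was at 75.2 to 95.2 CPM in wild type, 99.1 to 103 in Dnmt3a knockout, 102 to 120 in Sting knockout and 107 to 157 in double knockout, all mutants above wild type. Its fold change in double knockout was 0.61 (SE 0.17, adjusted p = 0.115). Csf3r was at 246 and 323 CPM in wild type and 333 to 405 CPM in the mutants, with 0.43 (SE 0.13, adjusted p = 0.138) in double knockout. Irf8 was at 122 and 186 CPM in wild type and 102 to 137 CPM in the mutants, and the ranges overlapped.

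Double knockout against Dnmt3a knockout, which sets Sting loss on a Dnmt3a-null background, gave 0 called members, with 0.156% of genes called, 3 members under an unadjusted p of 0.05, against 7.91% of genes, and 1 member (Cebpb) called by DESeq2. All 10 fold changes were positive, against 52.7% of genes, with a member median of 0.24, and 4 members did not overlap, against 25.3% of genes. Double knockout against Sting knockout gave 0 called members and 0.00% of genes, with 1 member under an unadjusted p of 0.05 (Csf1r, 0.38, SE 0.17), against 11.6% of genes, and none called by DESeq2, and 1 member did not overlap, against 26.5% of genes. In both comparisons to knockouts the libraries differ in sex as well, since both Dnmt3a knockouts and 1 of 3 double knockouts carried Xist and both Sting knockouts did not.

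Markers of mature cells differed between the same c-kit+ groups. The summed macrophage markers, 9 genes, were at 1540 to 1620 CPM in wild type, 565 to 587 in Dnmt3a knockout, 332 to 369 in Sting knockout and 347 to 537 in double knockout (highest in the wild types). Eosinophil markers were at 3840 to 4250 CPM in wild type and 1230 to 2900 CPM in the mutants. Mature neutrophil markers were at 6320 to 10800 CPM in wild type and 11100 to 32000 CPM in the mutants. All mutants thus lay above wild type. Gfi1, Cebpa, Cebpd, Csf2ra and Csf3r shared this order, and the share of all genes that do so was not counted. The same order held for the summed CMP/GMP markers, at 13410 and 14190 CPM in wild type and 15380 to 21350 CPM in the mutants. Against wild type, edgeR called none of the mature neutrophil or CMP/GMP markers in any mutant. Some macrophage and eosinophil markers were called lower in each mutant. The part of all these marker levels in the members' differences was not tested. Of 29 partner factors, edgeR called 1 lower in Dnmt3a knockout, 1 in Sting knockout and 2 in double knockout cells and none higher, and DESeq2 called 3, 2 and 4. Over all genes edgeR called 0.568%, 0.774% and 1.26%. Maf, a basic leucine zipper factor, fell in double knockout, from 20.9 ± 4.85 CPM in wild type (SD, n = 2) to 5.24 ± 2.08 (n = 3), with an adjusted p of 0.0399. Of 20 textbook targets, edgeR called only Cd68, a lysosomal protein of macrophages, while DESeq2 called 2, 5 and 7. Cd68 fell from 59.6 ± 1.76 CPM to 31.4 ± 0.999, 24.4 ± 3.44 and 27.1 ± 4.15 (adjusted p of 0.0334, 0.00617 and 0.00680). With a term for Xist or Y libraries, 0 of 16026 genes were called by edgeR in Dnmt3a knockout against wild type and 1085 were under an unadjusted p of 0.05, so the calls of Cd68 and the partner factor in that comparison were lost. Both Dnmt3a knockouts carried Xist and both wild types did not, so sex and genotype cannot be told apart there. The term rests on double knockout 1 against 2 and 3. Of the 22 tested CSF ligands, receptor chains and signalling genes edgeR called 0 in each, with 10, 5 and 10 at an unadjusted p under 0.05 and 5, 1 and 3 called by DESeq2. Over all genes 16.3%, 11.5% and 16.7% were under an unadjusted p of 0.05 by edgeR. Of the 8 opposing lineage factors, 0 were called by either tool and 0 were under an unadjusted p of 0.05.

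Over all 32 libraries, the genes whose log2 CPM followed each member most closely were taken from 10115 compared. The libraries share population, depth and preparation, so these correlations are a description. Csf1r was followed most closely by F13a1, a coagulation factor chain of monocytes (Pearson r = 0.975, and 0.969 over the 23 sorted libraries), Csf3r by Fgl2 (0.941 and 0.912), Cebpe by Arhgdib (0.955 and 0.917) and Spi1 by S100a11 (0.871 and 0.837). Gfi1 was followed by the complement gene C3, at 0.927 over 32 libraries and 0.746 over the sorted ones. Among the members, Irf8 and Csf1r were the closest pair, at 0.884 and 0.875. Cebpd and Csf2ra were the most opposed pair in the sorted libraries, at -0.72.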

How the data were processed

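The deposited table holds raw read counts per gene symbol, one column per library, which the authors made by trimming with Trim Galore 0.6.7, aligning to mm10 with HISAT2 and counting with featureCounts 2.0.1, per the submitters' processing notes. Of its 40 columns 32 matched a single sample, and 8 columns with repeated names (short-term stem cells) were not used, nor was the table of transposable elements. Counts were tested with edgeR 4.0.16 (quasi-likelihood, TMM, filterByExpr with a minimum count of 10 and total of 15) in R 4.3.3, over all genes passing the filter, with Benjamini-Hochberg adjustment and a threshold of 0.05. Each sorted population was fitted alone, the wild-type populations together, and the 9 c-kit+ libraries together. The SE is the log2 fold change over the square root of its F statistic. DESeq2 1.42.0, other scaling, no filter, the replicate number as a block, a term for Xist or Y libraries, and leaving out each library were alternatives. The script was tested on simulated counts. A floor of 3 reads stands for a count of 0, and depth of 3439743 to 47663942 reads limits low genes. Members and lists were chosen with earlier results of these data known. Named genes besides the members were, per list and comparison, up to 2 called genes of largest fold change with a mean of at least 5 CPM, and the 3 genes most correlated with each member, of which the first is given for some. Some genes that this rule selects are not reported here. Replicate numbers were checked for pairing: deviations of same-numbered libraries correlated at -0.198 to 0.157, not all above 0.1. Between wild-type populations the same-numbered library was mostly the best match, in all of MEP against LT-HSC, and between genotypes mostly not. Xist or Y status also followed the replicate number across the sorted populations of each genotype, except in wild-type CMP/GMP 4. Whether same-numbered sorted libraries share a mouse was not settled, and the main tests treat them as unpaired.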

Additional observations from a re-analysis of the deposited data

Results flagged for a closer look

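In groups of 4 libraries, 16 of 50 tests of members found 1 library far from the other 3, measured as its gap over the group's range. The cut-off flags about 1 in 20 groups when values are normally spread. These CPM were not logged and many are at or near 0, so that rate need not hold here. The 50 tests also share libraries. Wild-type LT-HSC 1 was high for Cebpa (51.8 CPM, the others 0 to 1.90), Cebpb (37.9, the others 0.305 to 2.92), Cebpd (8.28, the others 0 to 0.802), Irf8 (97.8, the others 3.84 to 7.67) and Csf1r (27.6, the others 0). Knockout LT-HSC 2 was high for Cebpa (27.0 CPM), Cebpb (71.0) and Gfi1 (11.7), and knockout LT-HSC 1 for Cebpe (2.44). Knockout MEP 2, the shallowest library, was high for Cebpa (26.1 CPM), Csf1r (16.4) and Csf3r (44.7). Wild-type CMP/GMP 3 was high for Cebpe (54.5 CPM), Spi1 (159), Irf8 (895) and Csf1r (227). Of these 4 libraries with 3 or more such values, wild-type LT-HSC 1, knockout LT-HSC 2 and knockout MEP 2 also stood apart over all genes, and wild-type CMP/GMP 3, with a median correlation of 0.923 in its population, did not.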

How the results depend on the processing

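The count of called members moved in most comparisons under at least 1 alternative. DESeq2 called 1 member in CMP/GMP knockout, 2 in MEP knockout, 1, 3 and 5 in c-kit+ Dnmt3a, Sting and double knockout against wild type, 1 in double against Dnmt3a knockout, 1 in the interaction, 2 and 4 in wild-type CMP/GMP and MEP against LT-HSC, and 3 in CMP/GMP against MEP. Without a filter on low counts 3, 4 and 8 members were called in the 3 c-kit+ mutants against wild type, where 1219, 735 and 1359 of 23582 genes were, 3 in each wild-type comparison with MEP (Csf1r added), 2 in double against Dnmt3a knockout and 1 in the interaction. With the replicate number as a block, 1 and 4 members were called in c-kit+ Dnmt3a and double knockout against wild type. In those fits 181 and 832 of 16026 genes were called. With the same block 1 member was called in wild-type MEP against LT-HSC, where 1877 of 14663 genes were. Whether the replicate number pairs these libraries was not settled. With only the 2 groups compared, 1 member was called in Dnmt3a and 1 in Sting knockout c-kit+ cells. There 1260 of 15088 and 286 of 15161 genes were called. A term for Xist or Y libraries left 0 in wild-type CMP/GMP against LT-HSC, as did 1 fit over the 23 sorted libraries, which left 1 in CMP/GMP against MEP. Leaving out 1 library gave 0 to 1 members in CMP/GMP knockout, 0 to 3 in MEP knockout, 0 to 1 in Sting knockout, 0 to 5 in double knockout and 0 to 1 in double against Dnmt3a knockout. For the wild-type comparisons it gave 0 to 2 for CMP/GMP against LT-HSC, 1 to 2 for MEP against LT-HSC and 0 to 3 for CMP/GMP against MEP. Cebpa was called in Sting knockout without double knockout 2, where 337 of 15929 genes were. In double knockout 5 members were called without double knockout 3, where 946 of 15828 genes were. Cebpb was called in double against Dnmt3a knockout without double knockout 1, where 74 of 15910 genes were. Alternatives chosen after seeing the data gave 2 members for wild-type CMP/GMP against LT-HSC without the library that stood apart and 0 with near-identical libraries summed. The cause was not tested. Of 1821 member values under alternatives, 1740 stayed on the same side of the threshold, most of them uncalled in both, 21 lost a call and 60 gained one, and 110 changed sign while uncalled in both. DESeq2's size factors moved the median of all genes from -0.085 to -0.185 in wild-type CMP/GMP against LT-HSC and from -0.171 to -0.251 in MEP against LT-HSC. DESeq2 found 1006 of 2518 called genes higher in the first, against 661 of 1281 by edgeR, and 1171 of 3319 in the second, against 883 of 1934. Without TMM, 4 of 100 member means moved by more than 1 SD, all in c-kit+ cells.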
